A study of Mus musculus with 11 samples.

Results

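Setd6, Pycard, B3gnt9, Abraxas2 and Ifitm5 are genes whose upstream antisense RNA (uaRNA) fell in the libraries labelled siZC3H4, and they were chosen by that difference in uaRNA reads. They are 5 of the 5867 genes with a uaRNA region in the deposited tables, and each was taken by its gene identifier in both the uaRNA table and the exon table. The assay was transient transcriptome sequencing (TT-seq) of nascent RNA, where cells take up 4-thiouridine (4sU) for a short pulse and the fragmented RNA that carries it is biotinylated and pulled down. The cells were wild-type F121-9 mouse embryonic stem cells, an established female line of hybrid CAST/129 background, grown without serum and with LIF and inhibitors of MEK and GSK3. All 5 libraries shared this genotype, medium and 4sU pulse. Of them, 3 (siNT replicates 1, 2 and 3) came from cells given 30 nM of a non-targeting siRNA and 2 (siZC3H4 replicates 2 and 3) from cells given 30 nM of an siRNA to Zc3h4, each with 500 µM 4sU for 20 minutes before harvest 47 hours after transfection. The labels call these replicates without saying whether cultures were separate, so the spread between these samples may be partly technical. The p-values measure that spread, pooled in part over all tested features. The DMSO and dTAG-13 samples of the series are not analysed here.

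RNA polymerase II leaves most active promoters in both directions. The sense transcript becomes the mRNA, while the antisense transcript, the uaRNA, is usually short, ends early and is degraded by the nuclear exosome. ZC3H4, together with WDR82, forms the Restrictor complex, which limits transcription of such noncoding RNA, and a uaRNA that goes down where the others go up is the exception to that setting. The 5 host genes do unlike things. Setd6 encodes a lysine methyltransferase that acts on the NF-κB subunit RELA, Pycard the inflammasome adaptor ASC, B3gnt9 a member of the β-1,3-N-acetylglucosaminyltransferase family, Abraxas2 the scaffold of the BRISC deubiquitinase complex, and Ifitm5 a member, best known from bone-forming cells, of the interferon-induced transmembrane family.

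The unit of all values is a depth-normalized read, a read count over a factor that the authors set per library. As whole reads the libraries held 996927 to 2648683 uaRNA reads and 14840637 to 26548710 exon reads. Exon reads of the siRNA target Zc3h4 were higher, not lower, in the libraries labelled siZC3H4 (3479 ± 125, SD, n = 3, against 7002 ± 401, SD, n = 2). These reads come from RNA labelled in the pulse, so the amount of mature Zc3h4 mRNA or protein was not measured. Each direction given here is therefore that of libraries labelled siZC3H4. All 8 markers of pluripotent cells were measured, with summed exon reads of 89522 to 106425 (siNT) and 75986 to 92314 (siZC3H4). Of the markers of other cells, the fibroblast list (3 of 6 measured, chiefly Fn1) summed to 29217 to 34705 and 30350 to 31587 reads. The myeloid list held Cd68 alone, with 681 to 948 and 471 to 583 reads. The osteoblast list held Alpl alone, with 4340 to 4786 and 3951 to 4229. The remaining markers of these lists had no exon values, so no myeloid cells or osteoblasts are read from Cd68 or Alpl. The part of these cell types in the results was not tested. In bulk RNA a smaller share of cells making a transcript and less transcript per cell cannot be told apart.

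The promoter sequence just upstream of a start is where antisense transcription begins, so 3 of these windows are shown, each of 250 bases before the RefSeq start on the strand of the host gene (RefSeq, GRCm38.p6, the mm10 assembly). Capitals mark matches to 4 motifs searched on both strands. The polyadenylation signal was searched as AATAAA on its own. The consensus 5′ splice site was taken as GTAAGT without further positions. The TATA box was written as TATAAA in this search. The GC box was GGGCGG or its complement.
Setd6, chr8:95715663-95715912, + strand: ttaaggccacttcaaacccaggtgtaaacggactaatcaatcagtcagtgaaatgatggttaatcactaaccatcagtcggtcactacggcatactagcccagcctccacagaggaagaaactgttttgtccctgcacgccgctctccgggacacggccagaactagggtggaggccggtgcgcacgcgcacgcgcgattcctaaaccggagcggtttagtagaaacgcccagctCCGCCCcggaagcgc
Pycard, chr7:127993868-127994117, - strand: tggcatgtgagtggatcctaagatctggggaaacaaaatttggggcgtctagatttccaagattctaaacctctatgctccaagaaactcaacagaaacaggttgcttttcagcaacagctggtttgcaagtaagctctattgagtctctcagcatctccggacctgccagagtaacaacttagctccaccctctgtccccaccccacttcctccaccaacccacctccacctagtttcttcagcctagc
Abraxas2, chr7:132858975-132859224, + strand: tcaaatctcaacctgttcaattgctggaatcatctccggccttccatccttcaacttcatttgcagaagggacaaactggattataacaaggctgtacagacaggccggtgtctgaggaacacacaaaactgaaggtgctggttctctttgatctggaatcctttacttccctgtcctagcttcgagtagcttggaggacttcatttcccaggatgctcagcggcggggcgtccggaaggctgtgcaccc

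The Setd6 window was rich in CpG, with 20 against a median of 6 over 32851 RefSeq promoter windows, and held 1 GC box on the antisense strand. The Pycard window held 2 CpG and the Abraxas2 window 7, and no motif was matched in either. A GC box lay on either strand in 32.7% of all windows, a polyadenylation signal in 18.1%, a TATA box in 12.4% and the 5′ splice site in 6.31%. In the antisense direction alone the polyadenylation signal was found in 9.49% and the 5′ splice site in 3.13%. A missing match says only that these letters are not in this window. The RefSeq start lay 24, 126 and 13 bases from the start in the exon table for Setd6, Pycard and Abraxas2. For Ifitm5 the RefSeq and exon-table starts lay 905 bases apart, so its window is not shown, and none is shown for B3gnt9.

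The uaRNA of Setd6 had the largest difference of the tested regions that fell. In siNT replicates 1, 2 and 3 it had 490, 328 and 520 reads, and in siZC3H4 replicates 2 and 3 it had 134 and 255. Both libraries labelled siZC3H4 lay below every siNT library, and the log2 difference was -1.24 ± 0.25 (SE), or 2.36-fold lower. These uaRNA differences chose the genes and are therefore given as a description, with no test.

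The Pycard uaRNA had 848, 650 and 993 reads with siNT, against 254 and 479 (libraries in the same order; log2 -1.23 ± 0.23 SE). That of B3gnt9 was 758, 488 and 626 reads against 224 and 362 (log2 -1.10 ± 0.23 SE). At both genes the lowest siNT library, replicate 2, stood above the higher of the libraries labelled siZC3H4. The Abraxas2 uaRNA was 195, 118 and 259 reads against 92.2 and 91.8 (log2 -0.97 ± 0.27 SE). The Ifitm5 uaRNA was 144, 110 and 169 reads against 53.8 and 94.6 (log2 -0.95 ± 0.28 SE). Groups did not overlap at either gene, though the gap for Ifitm5 was 94.6 to 110 reads. The Abraxas2 libraries labelled siZC3H4 were nearly equal, while its siNT libraries spread more on the log2 scale than those of 88.6% of tested regions. Pooled SDs of log2 values within groups were 0.48 (Setd6), 0.45 (Pycard), 0.38 (B3gnt9), 0.47 (Abraxas2) and 0.41 (Ifitm5). The SEs given are moderated over all regions and are smaller than these SDs alone would give.

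All 5 uaRNAs were among the 58 of 5124 tested regions (1.13%) that fell in limma's test with Benjamini-Hochberg adjustment, while 62.1% rose. For all 5 the higher of the siZC3H4 values was below the lowest siNT value, as it was for 2.11% of tested regions. Scaled by uaRNA reads alone, with the median of ratios, 597 regions fell and 536 rose, the median of all regions moved from log2 0.88 to -0.00, and the 5 differences ran from -2.13 to -1.83. Nothing is read from these counts, since this contrast chose the genes. Among the 58, ordered by fold, the 5 held places 1, 2, 5, 8 and 9. The regions between them had fewer reads: 1700028K03Rik, P2rx2, Mettl26 and Cast had log2 differences of -1.17, -1.13, -1.09 and -1.05 with mean levels of 25.7, 33.8, 48.9 and 26.6 reads. The next past Ifitm5 were Limd2, Mtrf1 and Tor1aip2, at log2 -0.94, -0.93 and -0.93. The falls rested on 95 to 1164 uaRNA reads per gene and library before division. Without siZC3H4 replicate 2 the 5 log2 differences were -0.77 (Setd6), -0.77 (Pycard), -0.76 (B3gnt9), -0.98 (Abraxas2) and -0.55 (Ifitm5). With that library left out 17 regions fell. Leaving out siNT replicate 1 gave 34, siNT replicate 2 gave 88 and siNT replicate 3 gave 32.

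**Figure D1:**
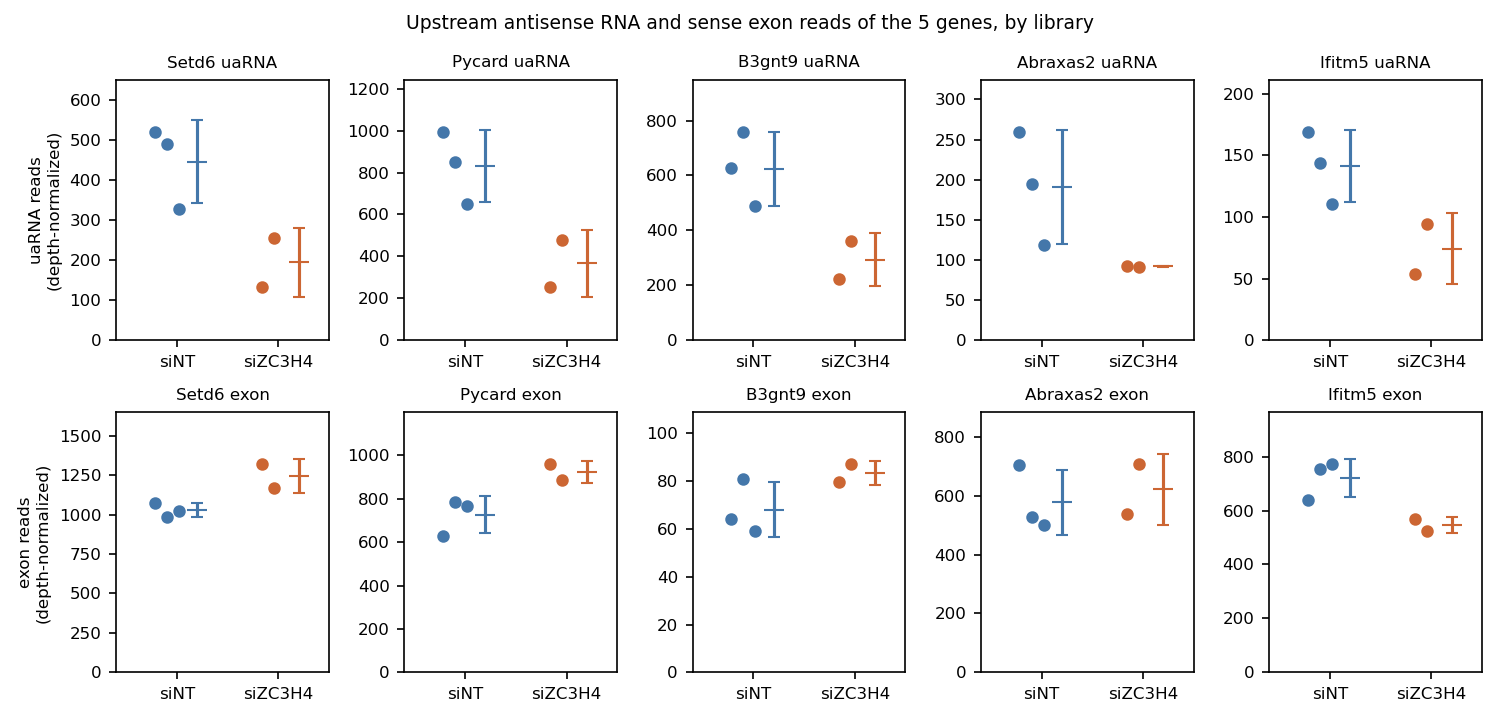
Depth-normalized uaRNA reads (upper row) and sense exon reads (lower row) of the 5 genes, each axis starting at 0; points are libraries and the bars beside them mean ± SD (siNT n = 3, siZC3H4 n = 2). The uaRNA points of the groups do not overlap at any of the 5 genes, from 490, 328 and 520 against 134 and 255 at Setd6 to 144, 110 and 169 against 53.8 and 94.6 at Ifitm5.

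The 5 uaRNAs shared part of their variation between replicates. Within the siNT group replicate 2 was the lowest library for all 5, and replicate 3 the highest for all but B3gnt9, whose highest was replicate 1. Within the other group, siZC3H4 replicate 2 held 0.523 times the reads of replicate 3 at Setd6, 0.529 at Pycard, 0.619 at B3gnt9 and 0.568 at Ifitm5, but 1.01 times at Abraxas2. Taken from each region's own mean over the libraries, Setd6 stood at log2 0.66, 0.08 and 0.74 in the siNT libraries and at -1.21 and -0.28 in those labelled siZC3H4. The median of all tested regions went the other way, at -0.26, -0.48 and -0.29 and then 0.64 and 0.43. It was lowest in siNT replicate 2, as the 5 uaRNAs were within that group, but highest in siZC3H4 replicate 2, where 4 of the 5 were at their lowest.

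Setd6 and Pycard had the most similar profiles, with a root mean square distance of log2 0.06 over the 5 libraries. Among Setd6, Pycard, B3gnt9 and Ifitm5 the distances ran up to 0.18, and from Abraxas2 to each of these they ran from 0.31 to 0.36. These distances include the difference between groups that chose the genes, and are a description.

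**Figure D2:**
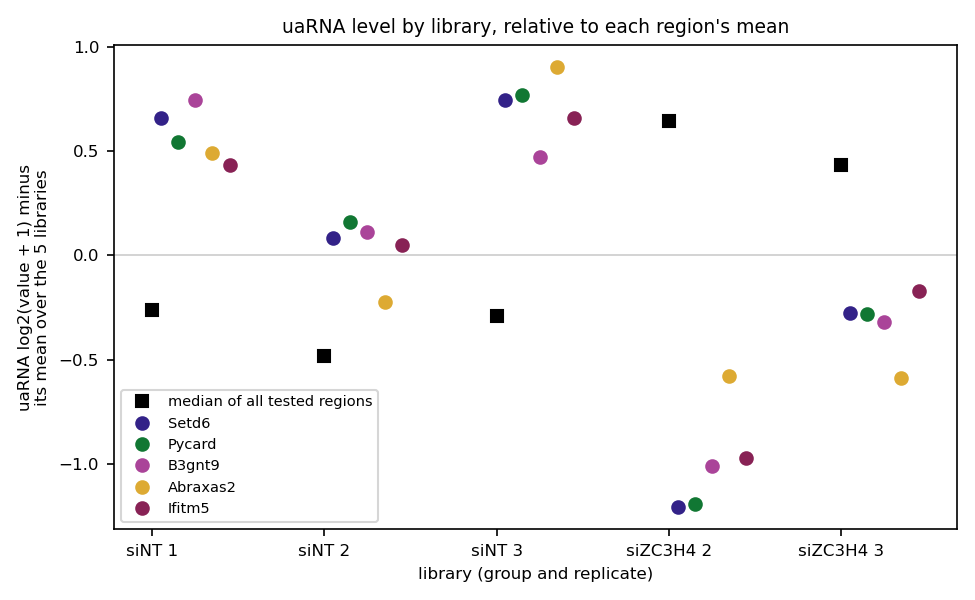
uaRNA log2(value + 1) in each library minus the region's mean over the 5 libraries, for the 5 genes (circles) and the median of all 5124 tested regions (squares). Setd6 lies at 0.66, 0.08 and 0.74 in the siNT libraries and at -1.21 and -0.28 in those labelled siZC3H4, where the median of all regions lies at 0.64 and 0.43.

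On the sense strand, none of the 5 host genes passed limma's test as fitted here, without a replicate block. By exon reads 0 of 5 passed limma's test over all 12482 genes, in which 2.22% rose and 0.144% fell. At an unadjusted threshold of 0.05, 2 of the 5 did (Pycard and Ifitm5), as did 15.3% of all genes, and 0 passed in edgeR or DESeq2. Exon reads did not choose the genes, but they come from the libraries and depth factors that did.

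Setd6 had 987, 1023 and 1073 exon reads with siNT and 1318 and 1167 with siZC3H4. Every library labelled siZC3H4 was higher, and the difference was log2 0.27 ± 0.13 (SE, limma adjusted p = 0.361). Pycard exon reads were 784, 767 and 628 against 959 and 886, again without overlap (log2 0.35 ± 0.15 SE, limma adjusted p = 0.2996). Of all genes tested, 19.5% had both siZC3H4 values above the highest siNT value. B3gnt9 was weakly transcribed in its own direction, with 81.0, 59.1 and 64.0 exon reads against 79.8 and 87.0. Those groups overlapped (log2 0.30 ± 0.25 SE, limma adjusted p = 0.660).

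Abraxas2 exon reads were 527, 500 and 704 against 537 and 707, with the groups interleaved (log2 0.11 ± 0.19 SE, limma adjusted p = 0.876). That difference turned to log2 -0.09 without siZC3H4 replicate 3. Ifitm5 was the only one of the 5 whose exon reads were lower in both libraries labelled siZC3H4, at 752, 771 and 641 against 567 and 524 (log2 -0.40 ± 0.15 SE, limma adjusted p = 0.230), a pattern found in 12.8% of genes. With all libraries 277 genes rose and 18 fell, and each library mattered to those counts. Leaving out siNT replicates 1, 2 and 3 in turn gave 2, 165 and 677 that rose and 0, 11 and 137 that fell. Leaving out siZC3H4 replicates 2 and 3 gave 10 and 80 that rose and 0 and 3 that fell.

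Per kb of transcript, the siNT exon level was highest for Setd6 (625 ± 26.4 reads per kb, SD, n = 3), followed by Ifitm5 (445 ± 43.4), Pycard (362 ± 42.6), Abraxas2 (200.2 ± 38.4) and B3gnt9 (32.6 ± 5.51). The ranges of mean ± SD of Ifitm5 and Pycard touched, and those of the other neighbours in that order did not. In the libraries labelled siZC3H4 Pycard stood above Ifitm5 (459 ± 25.7 and 336 ± 18.8 reads per kb, SD, n = 2). The uaRNA levels are not ordered in this way because the uaRNA table gives no region length.

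The ratio of antisense to sense reads differed widely among the 5 genes. At B3gnt9 the uaRNA exceeded the exon reads of its own gene, with 9.36, 8.25 and 9.79 uaRNA reads per exon read with siNT and 2.81 and 4.16 with siZC3H4. At Pycard the siNT ratios of 1.08, 0.848 and 1.58 lay on both sides of 1, and those with siZC3H4 were 0.264 and 0.540. Among 5106 pairs of a uaRNA and its gene the median siNT ratio was 0.0650, and 4.25% of pairs had a ratio above 1. The ratios mix a region of unstated length with exons, so they compare libraries and pairs and not molecules.

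At Setd6 the ratio was 0.496, 0.320 and 0.484 against 0.101 and 0.219. At Abraxas2 it was 0.370, 0.237 and 0.368 against 0.172 and 0.130. In both cases all siNT libraries were above those labelled siZC3H4. Nothing is read from this, since the ratio contains the uaRNA values that chose the genes. The share of all pairs with groups so separated was not computed. At Ifitm5 it was 0.191, 0.143 and 0.264 against 0.0948 and 0.181, and there the groups overlapped, since exon reads were lower too.

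In log2 terms the ratio differed by -1.51 at Setd6, -1.58 at Pycard, -1.41 at B3gnt9, -1.08 at Abraxas2 and -0.55 at Ifitm5, with pooled SDs between replicates of 0.54, 0.56, 0.25, 0.34 and 0.52. Over all pairs the median difference was 0.87, and 10.7% of pairs lay below 0. The differences contain the uaRNA values that chose the genes and were not tested. Without siZC3H4 replicate 2 the value was -0.96 at Setd6, -1.07 at Pycard and -0.09 at Ifitm5, and without siNT replicate 3 it was -0.33 at Ifitm5. Without siZC3H4 replicate 3 it was -1.01 at Ifitm5. The siNT ratio of means exceeded that of 89.2% of pairs at Setd6, 96.3% at Pycard, 99.7% at B3gnt9, 85.7% at Abraxas2 and 77.5% at Ifitm5. In the libraries labelled siZC3H4 the figures were 57.0%, 79.7%, 98.8%, 55.8% and 53.3%, so 3 of the 5 were then near the middle of all pairs. Since the genes were chosen by uaRNA values that enter both ratios, these ranks are a description and nothing is read from their shift.

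**Figure D3:**
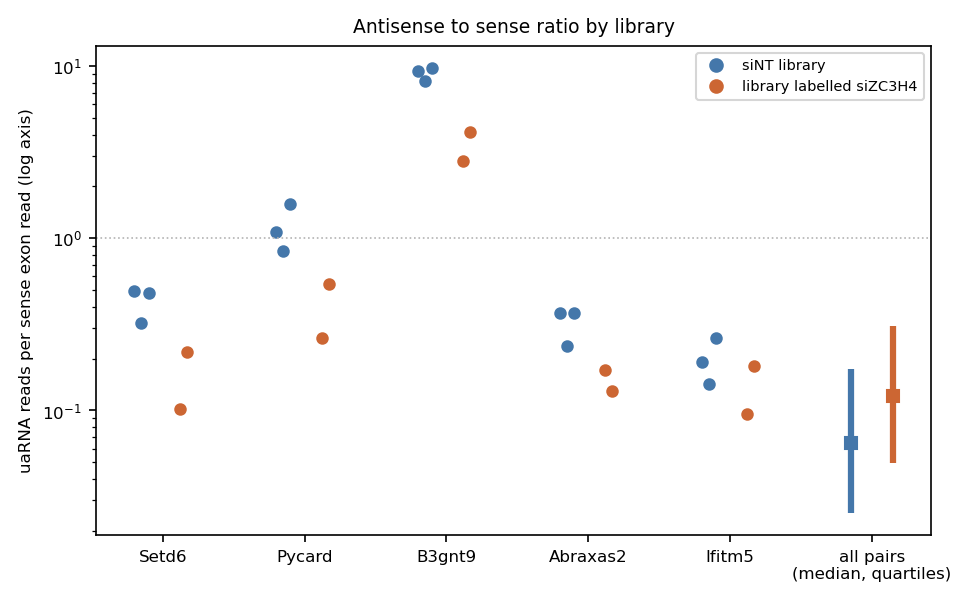
uaRNA reads per sense exon read in each library on a log axis, for the 5 genes and, at the right, the median and quartiles over 5106 pairs of group means. B3gnt9 lies at 8.25 to 9.79 in the siNT libraries and 2.81 and 4.16 in those labelled siZC3H4, while the median pair goes from 0.0650 to 0.121.

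Genes counted on the antisense strand were then listed within 50 kb of the starts of Setd6, B3gnt9, Abraxas2 and Ifitm5, using the coordinates of the exon table (mm10). There were 10 in all, and none spanned a host start. At 3 of these 4 genes the nearest one lay downstream and was transcribed towards the host start, so that the host gene and its neighbour face each other end to end. At Setd6 (chromosome 8, 95715937 to 95719004, + strand) this was Cnot1, the scaffold of the CCR4-NOT deadenylase, whose annotated 3′ end lay 3514 bases downstream of the Setd6 start. At B3gnt9 (chromosome 8, 105252638 to 105254722, - strand) it was D230025D16Rik, ending 1669 bases downstream and thus inside the B3gnt9 span. At Ifitm5 (chromosome 7, 140948958 to 140951148, - strand) it was Pgghg, a glycosidase gene acting on collagen sugars, ending 3490 bases downstream.

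Abraxas2 (chromosome 7, 132859238 to 132885114, + strand) had the other arrangement. Both of its antisense neighbours started upstream and ran away from it: Eef1akmt2, a methyltransferase gene, from 6622 bases upstream, and Fam53b from farther off. It was also the longest host, spanning 25877 bases against 3068 for Setd6, 2369 for Pycard (chromosome 7, 127991373 to 127993741, - strand), 2085 for B3gnt9 and 2191 for Ifitm5. The median host of a tested region spanned 22518.5 bases, and 6.42% or fewer of hosts were shorter than each of the latter 4. B3gnt9 had 3 upstream neighbours (the nearest Hsf4, a heat shock factor gene, 14164 bases away) and Ifitm5 had 1 (Ifitm1, a relative of its host, 17077 bases away).

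**Figure D4:**
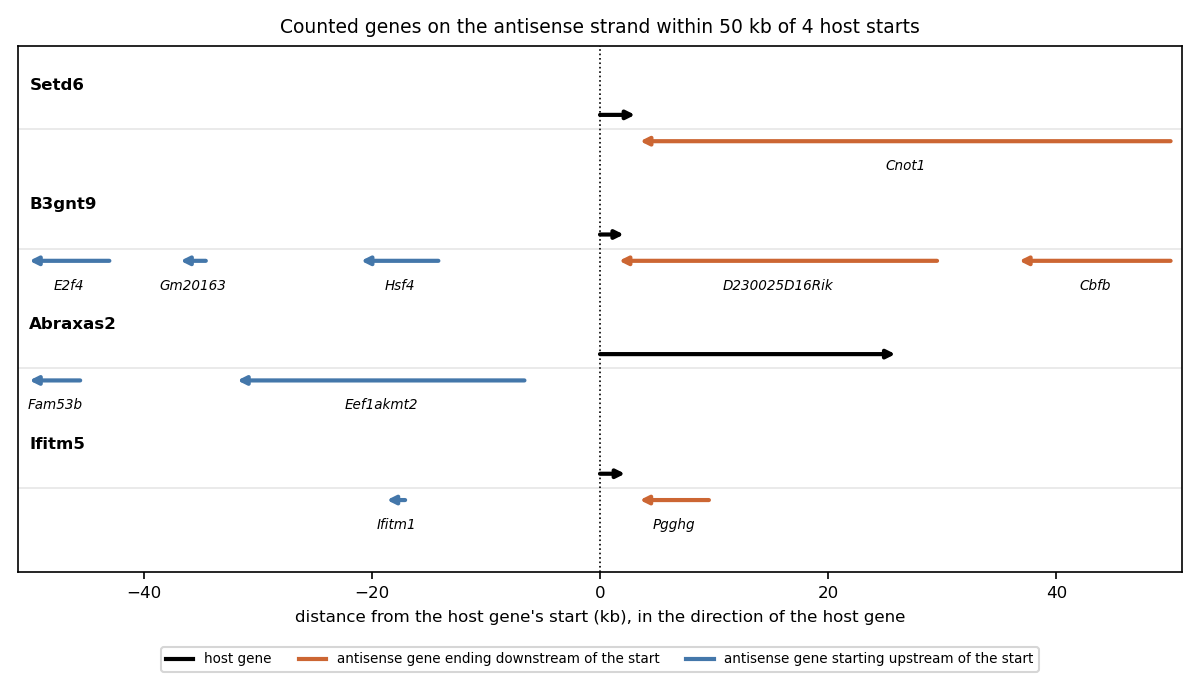
Antisense-strand genes of the exon table within 50 kb of 4 host starts (x axis: distance in kb from the start, in the direction of the host gene), drawn as arrows in their direction of transcription and clipped at 50 kb. Neighbours ending downstream lie at Setd6, B3gnt9 and Ifitm5, the nearest 3514, 1669 and 3490 bases from the start, and Abraxas2 has none.

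By exon reads, without a replicate block, no neighbour passed. Of the 10, 0 passed in limma, edgeR or DESeq2 after adjustment and 1 had an unadjusted limma p below 0.05, the lncRNA Gm20163 near B3gnt9 (named after its values were seen), at log2 1.07 ± 0.40 SE with 8.00 to 15.7 siNT reads; of all genes 15.3% had such a p. Cnot1 had 10169, 12450 and 12006 exon reads with siNT against 11121 and 11314. Its groups overlapped, with a log2 difference of -0.04 ± 0.12 (SE, limma adjusted p = 0.943) that turned to 0.02 without siNT replicate 2.

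D230025D16Rik had 5213, 5369 and 4406 reads against 4220 and 4748 (log2 -0.15 ± 0.13 SE, limma adjusted p = 0.671). Pgghg had 602, 772 and 606 reads against 832 and 675 (log2 0.19 ± 0.17 SE, limma adjusted p = 0.687). The groups overlapped at both genes. Read against the gene that ends downstream, the host uaRNA went from 3.93 ± 1.15 to 1.73 ± 0.75 reads per 100 Cnot1 exon reads at Setd6 (SD, n = 3 and 2). It went from 12.6 ± 3.06 to 6.47 ± 1.64 per 100 D230025D16Rik reads at B3gnt9, and from 22.0 ± 6.99 to 10.2 ± 5.35 per 100 Pgghg reads at Ifitm5. Since these ratios contain the uaRNA values that chose the genes, they are a description and nothing is read from their fall. The tables hold no reads between the annotated end of a neighbour and the uaRNA region, so any part of transcription running past those ends in the uaRNA counts was not tested.

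Of the upstream neighbours, Eef1akmt2 had 180, 185 and 244 exon reads against 154 and 175 (log2 -0.29 ± 0.21 SE, limma adjusted p = 0.597). Hsf4 had 68.0, 60.0 and 70.0 against 60.6 and 61.2 (log2 -0.11 ± 0.24 SE, limma adjusted p = 0.905). Ifitm1 had 673, 866 and 634 against 626 and 511 (log2 -0.34 ± 0.18 SE, limma adjusted p = 0.417). At Ifitm1 and Eef1akmt2 both libraries labelled siZC3H4 lay below every siNT library. The gaps were as little as 626 against 634 and 175 against 180, and 12.8% of all genes tested were so separated. The other 4 neighbours ran from log2 -0.18 to 1.07. At 6 of the 10 neighbours a uaRNA of their own was tested, and its log2 difference was above 0 at each: 0.17 at D230025D16Rik, 0.51 at Pgghg, 0.03 at Ifitm1, 1.40 at Eef1akmt2, 0.74 at Fam53b and 1.00 at Cbfb. Over all tested regions the lower quartile of this difference was 0.46, so a value above 0 was usual and does not mark the neighbours.

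The arrangement seen at Setd6, B3gnt9 and Ifitm5 was less common among all tested regions than among those with hosts as short as these. An antisense gene ended within 50 kb downstream of the host start at 1756 of 5124 regions (34.3%), and within 10 kb at 413 (8.06%), the latter including these 3 genes. Among the 331 regions with a host no longer than 3068 bases, one ended within 10 kb at 139. Leaving the 5 genes out, 34 of 1752 regions with such a neighbour within 50 kb fell (1.94%), against 19 of 3367 without (0.564%), and 12 of 410 with one within 10 kb (2.93%). The median uaRNA difference of the regions was log2 0.83 with a neighbour ending within 50 kb, 0.70 within 10 kb and 0.90 without. Other features moved with this. The median siNT level was 65.1, 84.5 and 50.9 reads in these sets, and regions with an antisense gene starting within 50 kb upstream fell in 27 of 1827 cases (1.48%). Host length moved with it too: of regions with a host no longer than 3068 bases, the length of Setd6, 13 of 327 fell (3.98%), and of those that also had an antisense gene ending within 10 kb, 9 of 136 fell (6.62%), the 5 genes left out. This comparison was made after the positions at the 5 genes had been seen, is a description with no test, and does not set the neighbours' position apart from gene density, host length or level. The share that fell was higher with such a neighbour in all 14 alternative settings and left-out libraries tried. It was 1.09% against 0.298% without siNT replicate 1, 2.97% against 0.921% without siNT replicate 2 and 0.972% against 0.298% without siNT replicate 3. The gap between the shares was narrowest without siZC3H4 replicate 2, a fit that leaves only replicate 3 in that group. In that fit the median difference was log2 0.70 with such a neighbour and 0.81 without. These refits reuse the libraries and the contrast that chose the genes, so their agreement is no separate support.

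**Figure D5:**
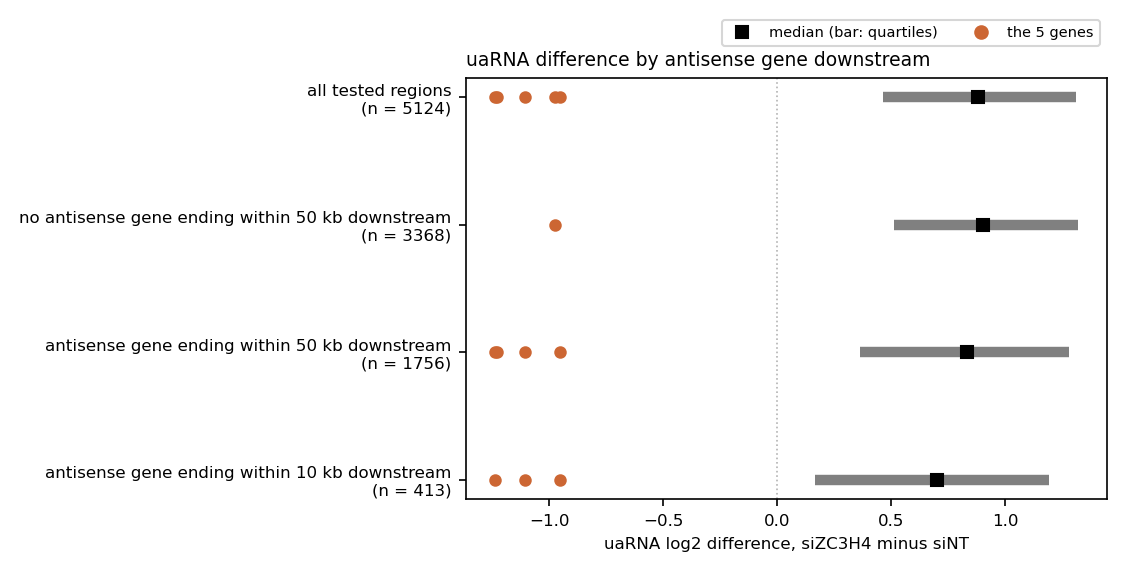
uaRNA log2 difference (siZC3H4 minus siNT) by the presence of a counted antisense gene ending downstream of the host start; squares are medians, bars quartiles over regions and circles the 5 genes. Medians are 0.88 over all 5124 regions, 0.90 without such a gene within 50 kb, 0.83 with one within 50 kb and 0.70 within 10 kb, while the 5 genes lie between -1.24 and -0.95.

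Regions most like the 5 genes were sought among 2154 other uaRNAs with a mean of 100 reads or more, by the root mean square distance between log2 profiles over the 5 libraries. The uaRNA of Endog, a mitochondrial endonuclease gene, was the nearest to Ifitm5 (0.09), Pycard (0.18) and Setd6 (0.22). It had 178, 155 and 247 siNT reads and 78.1 and 126 in the libraries labelled siZC3H4. An antisense gene ended 1934 bases downstream of the Endog start. The uaRNA of Fanca was second for Ifitm5 and Pycard (0.12 and 0.25) and that of Prps1 second for Setd6 (0.26). Tor1aip2 and Tmem94 were nearest to B3gnt9 (0.19 and 0.23), and Tmem94 and Ddx24 to Abraxas2 (0.16 and 0.21). Each of these 6 was itself among the 58 regions that fell. This follows from the measure, since likeness over these libraries includes the difference between groups. The nearest antisense gene ending downstream was farther off at the regions other than Endog. It lay 19464 bases away at Ddx24, 33677 at Tmem94, 35073 at Tor1aip2, 48815 at Fanca and 82903 at Prps1.

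Relatives of the 5 genes in function or family were counted in the same tables. Of 29 relatives with exon values, 0 passed in limma or edgeR and 2 in DESeq2 (Shmt2 and Abraxas1), where DESeq2 called 5.08% of genes. Before adjustment 6 of the 29 were below 0.05 in limma, against 15.3% of all genes, with a median log2 difference near that of all genes (-0.00025 against 0.01). Among the uaRNAs of these relatives 15 were tested, of which 10 rose and 0 fell; over all tested regions 62.1% rose. The lists were not tested as sets.

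Among the listed SET-domain genes, 10 were measured and 6 of 7 tested uaRNAs rose. The exception was that of Kmt5a, a histone H4 methyltransferase, with means of 319 and 316 reads. Setd5 had the highest exon level of that list per kb (690.5 reads per kb in siNT, log2 0.19 ± 0.11 SE, limma adjusted p = 0.508). Of 14 inflammasome genes 3 had values and the rest are not analysed here. Aim2, a cytosolic DNA sensor that signals through ASC, had the highest of the 3 (188 reads per kb, log2 0.13 ± 0.20 SE). In the β-1,3-N-acetylglucosaminyltransferase list both tested uaRNAs rose, those of B3gnt7 (197 to 578 reads) and B3gntl1 (54.5 to 152), where that of B3gnt9 fell.

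Of the BRISC and BRCA1-A complexes all 8 genes had exon values, and 0 of 2 tested uaRNAs rose or fell, those of Abraxas1 (11.4 to 22.1 reads, log2 0.93 ± 0.45 SE) and Bard1 (63.2 to 82.0 reads, log2 0.35 ± 0.30 SE). Shmt2, a serine hydroxymethyltransferase that binds BRISC, had the highest level (2390 reads per kb) and went from 5330 ± 200.03 to 3922 ± 151 reads (SD, n = 3 and 2) without passing in limma (log2 -0.44 ± 0.11 SE, limma adjusted p = 0.0740). Abraxas1, the paralogue of Abraxas2 in the BRCA1-A complex, had log2 0.64 ± 0.17 SE (limma adjusted p = 0.0876). Of the interferon-induced transmembrane family 5 had exon values and none passed in limma, edgeR or DESeq2, while 3 of the 5 had unadjusted limma p-values below 0.05, against 15.3% of all genes. The uaRNAs of Ifitm2 (95.3 to 194 reads) and Ifitm3 (86.7 to 342) rose, and those of Ifitm1 and Ifitm7 had log2 differences of 0.03 and 0.11 and did not pass. Ifitm2, the family member with the highest exon level (4590 reads per kb), had log2 -0.16 ± 0.12 SE (limma adjusted p = 0.607). Reads of Ifitm paralogues can be shared where their sequences match, so their levels are less certain than those of the other lists.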

How the data were processed

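Per the labels' protocols, nascent RNA was labelled with 4sU, fragmented, biotinylated, pulled down and sequenced from strand-specific total RNA libraries. Cutadapt 1.14, STAR, featureCounts and DESeq2, with builds mm10 and dm6, are named per the submitters' processing notes, while their order and settings are not given in the sources used here. Deposited by the authors were depth-normalized signal values for 5867 uaRNA regions and 13088 genes over exons, in which each value is a whole read count divided by 1 factor per library (1 to 1.767); 100% of values came out whole within 0.01 reads. Levels per kb use the transcript length in the deposited gene table. Antisense neighbours of Pycard are not reported here. For 6 genes listed end first, start and end were put in order.

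Tests used limma 3.58.1 in R 4.3.3 on log2(value + 1), siZC3H4 minus siNT, over all features with a mean of 10 or more (5124 uaRNAs, 12482 genes), with a mean-variance trend, no block, Benjamini-Hochberg adjustment and a threshold of 0.05. The log2(value + 1) scale understates changes of low features. SE is limma's moderated one, drawn towards the spread of all tested features (67.5 degrees of freedom for uaRNAs, 9.22 for genes). The words "rose" and "fell" mean past the threshold. edgeR 4.0.16 and DESeq2 1.42.0 were run on the recovered reads. The fit was tested on simulated data. The members, gene lists and tests were chosen with earlier results of these data known. Named genes were the 5 members, the nearest antisense neighbour on each side within 50 kb, the 2 uaRNAs of nearest profile and, from each list of relatives, the member with the highest exon level per kb and any that passed, with others named after their values were seen.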

Additional observations from a re-analysis of the deposited data

How the results depend on the processing

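The 5 uaRNA differences kept their sign under every alternative run. These runs reuse the contrast that chose the genes, so the kept sign is no separate support. Scaling by uaRNA reads alone lowers the log2 differences of all regions together, so the median moved towards 0 and these 5 became larger. By the median of ratios, TMM and equal totals they were -2.13, -2.10 and -1.81 at Setd6, -2.12, -2.09 and -1.80 at Pycard, -1.99, -1.97 and -1.67 at B3gnt9, -1.86, -1.83 and -1.54 at Abraxas2 and -1.83, -1.81 and -1.52 at Ifitm5. In those scalings 597, 565 and 320 regions fell and 536, 561 and 1248 rose. The ratio differences by the median of ratios were -2.36, -2.43, -2.26, -1.93 and -1.39. Leaving out 1 library at a time, the uaRNA difference ran from -1.69 to -0.77 at Pycard, and the ratio difference from -2.06 to -0.96 at Setd6 and from -1.69 to -1.12 at B3gnt9. Regions that fell numbered 17 to 88 and those that rose 1824 to 3119; genes that fell numbered 0 to 137 and those that rose 2 to 677. The exon difference ran from -0.086 to 0.31 at Abraxas2 and from -0.12 to 0.022 at Cnot1, and kept its sign at the other 4 members and at D230025D16Rik, Hsf4, Eef1akmt2, Pgghg and Ifitm1. By exon reads 29 genes fell with the median of ratios, and 97 fell and 537 rose with DESeq2. With a window of 10 kb in place of 50 kb, 4 antisense neighbours were counted in place of 10.

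With the replicate number as a block, in which siNT replicate 1 drops out, 1530 genes rose and 830 fell, and limma's adjusted p became 0.00296 for Pycard exon reads (log2 0.41), 0.0136 for Ifitm5 (-0.37) and 0.00792 for Ifitm1 (-0.39). Libraries with the same number deviated together (correlation over genes 0.528 and 0.618, over uaRNAs 0.376 and 0.426). The 2 values of each kind are not separate evidence, since deviations of the 2 siZC3H4 libraries from their mean mirror each other. With 2 shared numbers and no label that pairs them, the numbers are not taken as pairs.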
